A study of Setaria viridis with 24 samples.

Results

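The crown of a grass seedling was compared with its stem in watered Setaria viridis plants at 9 days after sowing. Setaria viridis, green foxtail, is a wild millet studied as a stand-in for larger cereals. Of the 20865 genes listed anywhere in the series, the comparison covers the 19490 listed in the authors' deposited table for this pair of groups, and all of these were kept. The crown group is the lower region of the shoot base and the stem group the upper region, per the labels. Both came from watered plants grown in a sand and peat mix, with 20 plants pooled for each sample and 3 libraries in each group, 1 from each biological repeat. The whole series has 24 libraries in 8 groups, formed by region, water supply (watered or drought) and day (6 or 9). Whether the crown and stem samples of a repeat were cut from the same plants was not given in the sources used here.

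In grasses most of the mature root system is shoot-borne. Crown roots start as primordia inside the nodes at the shoot base, emerge through the surrounding tissue, and soon exceed the seminal root in number and reach. The title of the series concerns the suppression of these roots under drought. In watered plants the crown is the region where such roots form, while the region above it is taken up by stem tissue and enclosing leaf bases.

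Every expression value below is an FPKM, that is, the number of fragments scaled to transcript length and library size, which the authors gave as 1 value per group. The values of single libraries were not analysed here, so no standard deviation can be given and depth per library is unknown. A gene was called when its deposited q-value was under 0.05. It is referred to as crown-higher or stem-higher after the region with the larger FPKM. Gene identifiers stand alone because the tables hold no description for any of the 19490 genes, and 0 of their identifiers matched the 34587 entries of the RefSeq gene table. For the same reason the crown and stem labels were not checked against root or leaf markers. In bulk tissue, fewer cells of a type and less RNA per cell cannot be told apart.

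Crown and stem differed in 3678 genes, 18.9% of those listed. The crown had the higher level in 2337 of them, 12.0% of all listed genes, and the stem in 1341, or 6.88%. Crown-higher genes thus made up 63.5% of the calls. An exact binomial 95% interval over genes, 62.0 to 65.1, treats genes as independent. It cannot tell how the share would vary between plants or libraries, since genes and not libraries were counted. The share also changed with expression level, and lay outside this interval, at 49.1%, for genes at or above the median gene in mean level. The called crown-higher genes had the larger ratios. Among called genes above 0 FPKM in both regions, the median log2 ratio of crown over stem was 1.63 for the 2210 crown-higher genes, with quartiles of 1.18 and 2.29, and -1.33 for the 1340 stem-higher genes, with quartiles of -1.67 and -1.04. These medians correspond to 3.10-fold and 2.52-fold. Calls at low levels had larger ratios. The 5th percentile of the absolute log2 ratio of called genes was 1.21 at 2 to 5 FPKM and 0.78 at 100 to 500 FPKM. The lower of these classes held 483 crown-higher and 63 stem-higher genes, so the 2 medians also reflect the level at which genes were called. At least 8-fold differences were called for 406 crown-higher and 19 stem-higher genes. Without regard to calls, 701 listed genes were at least 8-fold higher in the crown and 30 at least 8-fold higher in the stem. Most genes were similar in both regions: the median log2 ratio over 19359 genes above 0 was 0.05, with quartiles of -0.30 and 0.53.

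**Figure D1:**
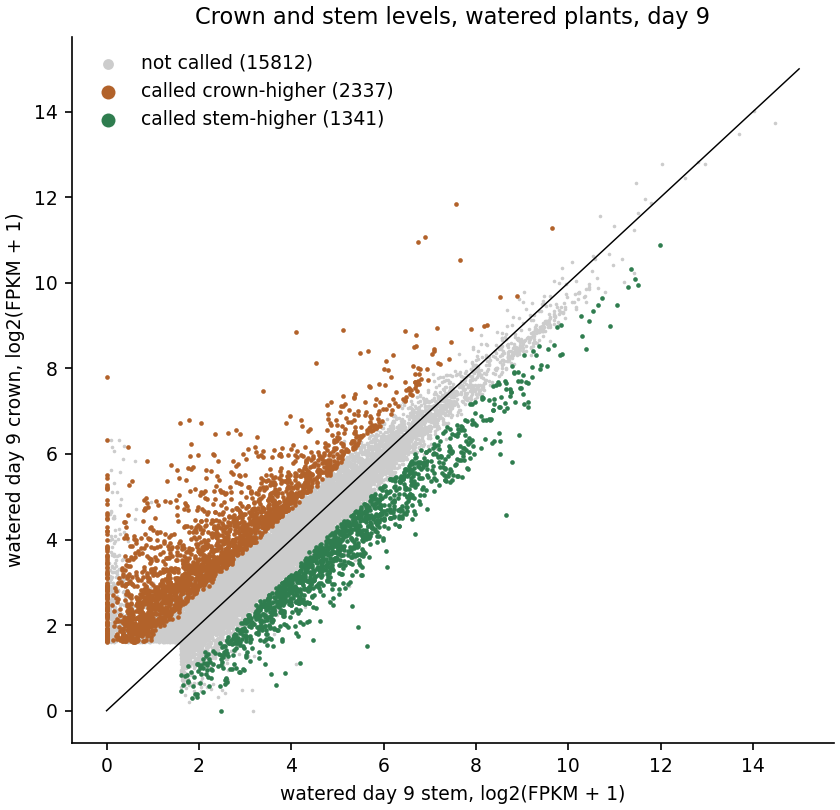
Each point is 1 of 19490 listed genes, with its level in the watered day 9 stem on the x axis and in the watered day 9 crown on the y axis, both as log2(FPKM + 1), and the line marks equal levels. Brown points are the 2337 called crown-higher genes, green points the 1341 called stem-higher genes and grey points the 15812 genes not called. Brown points reach farther from the line than green ones, and a column of grey points lies just beside the brown points at 0 in the stem.

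The direction of the difference went with the level of expression. Among the 3857 genes whose higher group stood between 2 and 5 FPKM, 483 were crown-higher and 63 stem-higher. Between 20 and 50 FPKM the numbers were 507 and 405 of 4506 genes. Between 100 and 500 FPKM they were 114 and 196 of 1078 genes, and at 500 FPKM or more 9 and 38 of 225. The share of listed genes called crown-higher thus stayed between 10.6% and 14.2% up to 500 FPKM and was 4.0% above, whereas the share called stem-higher was larger in each class up to 500 FPKM, from 1.63% to 18.2%, and was 16.9% above. The low end was alike without calls: 1059 genes of the lowest class were at least 2-fold higher in the crown and 228 at least 2-fold higher in the stem, called or not. Among genes whose mean was at or above that of the median gene, 886 were crown-higher and 917 stem-higher, so that 49.1% of those calls were crown-higher.

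**Figure D2:**
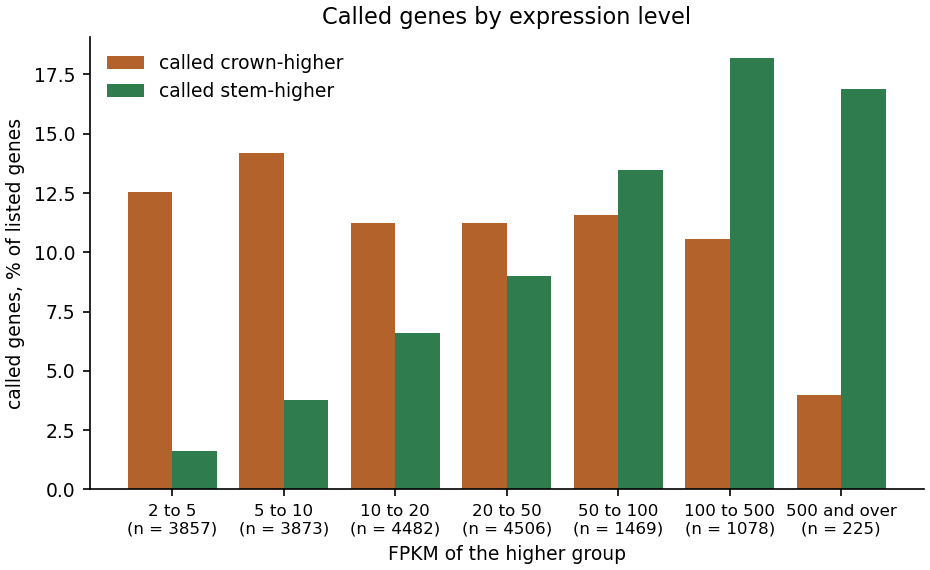
Bars give the percentage of listed genes called crown-higher (brown) or stem-higher (green) on the y axis, in classes by the FPKM of the higher group on the x axis, with the number of listed genes below each class. Stem-higher calls go from 1.63% in the lowest class to 18.2% between 100 and 500 FPKM, and crown-higher calls are at 12.5% in the lowest class and 4.0% in the highest.

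Stem-higher genes, though fewer, held the larger share of summed expression in their own region. The crown-higher genes held 10.9% of the summed FPKM of the listed genes in the watered day 9 crown and 3.19% in the stem. Stem-higher genes held 15.5% in the stem and 6.81% in the crown. The very most abundant transcripts were common to both regions: 9 genes were among the 10 most abundant of both crown and stem, and of the 11 genes in either list 0 were crown-higher and 1, Sevir.6G242900, was stem-higher. The 10 most abundant genes took 11.6% of summed FPKM in either region.

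Ratios were ranked among called genes above 0 in both regions whose higher region reached the median of 13.6 FPKM. The largest crown-higher ratios in this ranking belonged to genes near the detection limit of the stem. Sevir.6G223800 (chromosome 6, 32674024 to 32676224 in the files' own coordinates) reached 70.3 FPKM in crowns, against 0.377 in stems. The authors' deposited table gave it a log2 ratio of 7.54 at q = 0.00091. In the drought day 9 crown it stood at 4.97 FPKM, and in the day 6 crowns at 3.90 watered and 1.40 under drought. It was thus high in 1 of the 8 groups. The next largest, Sevir.9G385000 (chromosome 9, 42058969 to 42060788), had 37.7 FPKM in crowns against 0.401 in stems, and a log2 ratio of 6.56 at q = 0.0114 by the authors' deposited table. Unlike the first gene, it was abundant in each crown group, with 26.2 FPKM in watered and 44.9 in drought crowns at day 6 and 115 in drought crowns at day 9, while no stem group exceeded 2.04 FPKM.

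By the same ranking, the largest ratio in the stem direction was that of Sevir.1G138600 (chromosome 1, 14283141 to 14284098), with 48.9 FPKM in stems against 1.86 in crowns. The authors' deposited table gave -4.72 on the log2 scale at q = 0.00091. Its stem level at day 6 was 207 FPKM in watered plants, and its crown level then was 13.2 FPKM. Sevir.6G180400 (chromosome 6, 29189839 to 29190478) had 403 FPKM in stems against 22.6 in crowns, and a log2 ratio of -4.15 at q = 0.00091 by the authors' deposited table. Its levels were 1014 FPKM in the watered day 6 stem, 793 in the drought day 6 stem and 333 in the drought day 9 stem, against 104, 62.0 and 12.8 in the corresponding crowns. By FPKM, both genes were lower at day 9 than at day 6 in both regions and both water regimes, and kept the stem above the crown throughout. For Sevir.1G138600, neither the crown against stem difference under drought at day 9 nor the difference between days in drought crowns was called. Each had q = 0.078 in the authors' deposited tables.

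Among abundant genes, Sevir.3G065500 (chromosome 3, 4248039 to 4248707) was the highest crown-higher gene, at 3681 FPKM in crowns against 189 in stems. The authors' deposited table gave a log2 ratio of 4.28 at q = 0.00091. All 4 crown groups lay between 2263 and 4932 FPKM and all 4 stem groups between 165 and 497. Sevir.8G188400 (chromosome 8, 32335999 to 32337016) followed at 2494 FPKM in crowns against 802 in stems, with a smaller log2 ratio of 1.64 at q = 0.0017 by the authors' deposited table. Its stem level differed more between groups than its crown level, from 487 FPKM in watered stems at day 6 to 1246 in drought stems at day 9, against 2318 to 2932 over the crowns.

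The most abundant stem-higher genes differed less between the regions. Sevir.6G242900 (chromosome 6, 34235880 to 34236015) reached 4066 FPKM in stems against 1896 in crowns. The authors' deposited table gave -1.10 on the log2 scale at q = 0.0023. Sevir.2G310200 (chromosome 2, 38142447 to 38143509) reached 2897 FPKM in stems against 986 in crowns, with a log2 ratio of -1.56 at q = 0.0118 by the authors' deposited table. Both were highest in the watered day 6 stem, at 5994 and 4766 FPKM, and lowest in the drought day 9 crown, at 1101 and 889 FPKM.

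Absence from 1 region was nearly one-sided. The stem was listed at 0 FPKM for 129 genes and the crown for 2. Of the 129, 127 were called, at crown levels from 2.06 to 220 FPKM with a median of 5.09. In the other 3 stem groups 126 of these 127 stayed under 1 FPKM in each, and 38 were again at 0 in all 3. Only the watered day 9 crown could bring them onto the list, so lower levels in other crowns follow in part from the choice. Their median was 0.612 FPKM in the watered day 6 crown, 0.220 in the drought day 6 crown and 1.77 in the drought day 9 crown, and 60 of the 127 reached 2 FPKM in the last of these. The most abundant was Sevir.7G201700 (chromosome 7, 25622450 to 25623615), at 220 FPKM in the watered day 9 crown, 47.5 in the drought day 9 crown, 28.3 in the watered day 6 crown and 5.06 in the drought day 6 crown. Sevir.8G230200 (chromosome 8, 36923979 to 36924576) reached 78.8 FPKM in the watered day 9 crown, 1.17 in the watered day 6 crown and 0.236 in the drought day 9 crown, and was listed at 0 in every stem group. Both had a q of 0.00091 in the authors' deposited table.

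The stem-higher counterpart, and the single called gene listed at 0 in the crown, was Sevir.1G030400 (chromosome 1, 2657969 to 2658598), at 4.60 FPKM in the watered day 9 stem (q = 0.00091 in the authors' deposited table). It also stood at 5.07 FPKM in the watered day 6 stem, and at 0.765 and 0.347 FPKM in the drought stems of day 6 and day 9. The other gene at 0 in the crown, Sevir.3G301800 (chromosome 3, 28462818 to 28463254), was not called (q = 0.093 in the authors' deposited table). It stood between 6.84 and 12.0 FPKM in the other 7 groups, and an exact 0 in a table of group values can be a failed estimate.

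Whether a strongly crown-higher gene was called depended on whether the stem value was exactly 0. Among genes at least 8-fold higher in the crown, 98.4% of the 129 with the stem at 0 were called. With the stem above 0 and under 0.2 FPKM, 18 of 231 were called, or 7.79%. From 0.2 to 0.5 FPKM 56.1% of 171 were called, from 0.5 to 1 FPKM 93.2% of 73, and from 1 FPKM upwards each of 97. The gap was as wide among genes with at least 10 FPKM in the crown: 29 of 29 were called with the stem at 0, and 0 of 34 with the stem above 0 and under 0.2 FPKM. For the 29 called genes the deposited p was 5e-05, the smallest in the tables, and for the 34 it ran from 0.012 to 0.25, of which the authors' joint adjustment calls none. Of the 701 genes at least 8-fold higher in the crown, 406 were called in all, so that counts of calls leave out the others.

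The levels of the 34 uncalled genes were read in the other groups as well. Their median was 16.8 FPKM in the watered day 9 crown, 15.4 in the drought day 9 crown and 3.98 in the watered day 6 crown, against 0.111, 0.251 and 0.119 in the corresponding stems. At day 9 under drought 24 were listed and 11 of the 24 were called crown-higher, where 11.6% of all genes were. At day 6 in watered plants 23 were listed and 13 called crown-higher, where 8.30% of all genes were. Of the 29 genes with the stem at 0, 9 of 18 listed and 12 of 16 listed were called crown-higher in the same order. These calls too can depend on an exact 0 in the stem, so the counts only describe the genes. With levels of at most 1.39 FPKM in the watered day 6 stem, the 34 could enter the watered day 6 table only through the crown. The direction there was thus fixed by the listing. The highest of them in the watered day 9 crown, a gene named here after its values were seen, was Sevir.9G234700 (chromosome 9, 17899618 to 17900716). Crowns had 79.9 FPKM against 0.0724 in stems, and the authors' deposited table gave a log2 ratio of 10.11 at q = 0.415. Its other crown levels were 41.0, 27.9 and 139 FPKM (watered day 6, drought day 6 and drought day 9) and its other stem levels 0.124, 0.0484 and 0.252.

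The levels of the called genes were then followed through all 8 groups. Crown-higher genes had a median of 12.0 FPKM in the watered day 9 crown and 3.32 in the stem. In the drought day 9 crown the median was 10.3 FPKM, and in the day 6 crowns 5.85 watered and 5.16 under drought. The 3 other stem groups lay between 2.38 and 2.97 FPKM. For stem-higher genes the median was 28.9 FPKM in the watered day 9 stem and 11.6 in the crown. They were higher at day 6 in both regions, at 41.5 FPKM in watered stems and 18.1 in watered crowns. Over all listed genes the 8 medians lay between 11.0 and 11.8 FPKM. The watered day 9 values chose these sets and describe them, while the other 6 groups had no part in the choice.

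**Figure D3:**
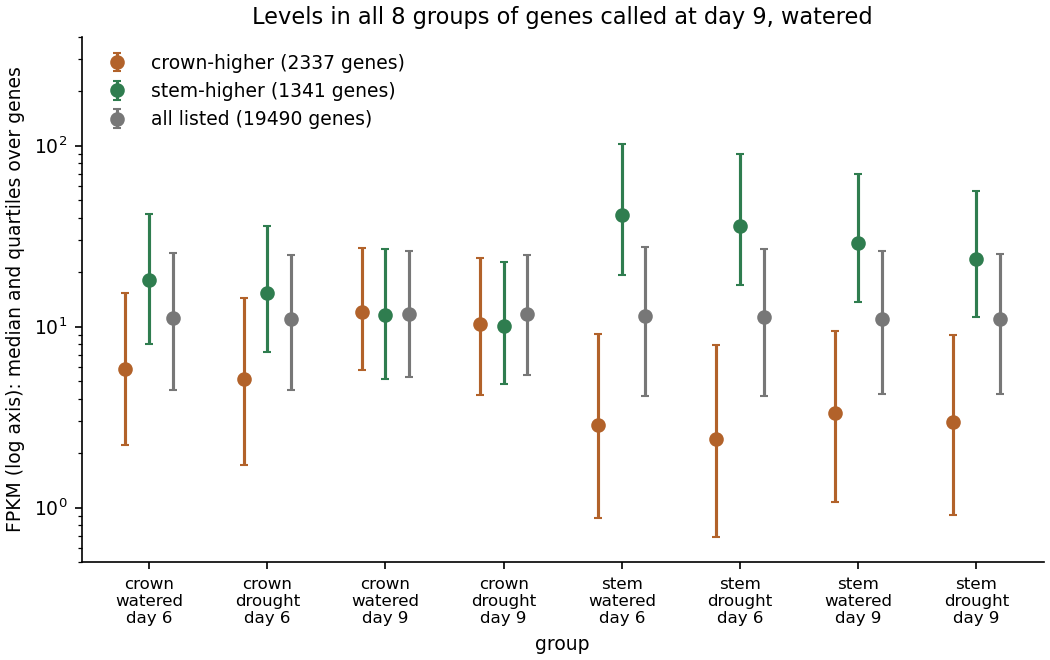
Points are medians and bars quartiles over genes of FPKM (y axis, log scale) in each of the 8 groups (x axis), for the genes called crown-higher (brown) and stem-higher (green) at day 9 in watered plants and for all listed genes (grey). The crown-higher median is 5.16 to 5.85 FPKM in day 6 crowns and 10.3 to 12.0 in day 9 crowns, with every stem group at or under 3.32. Stem-higher medians are highest in the watered day 6 stem, at 41.5 FPKM.

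The group in which each gene peaked differed between the sets. Of the crown-higher genes, 58.2% had their highest FPKM in the watered day 9 crown, which chose them, 35.6% in the drought day 9 crown, and 2.40% and 2.74% in the watered and drought day 6 crowns. Stem-higher genes peaked mainly at day 6: 75.4% in the watered day 6 stem and 12.3% in the drought day 6 stem, against 6.79% in the watered day 9 stem that chose them. Over all listed genes the peak lay in the watered day 6 stem for 22.7%, in the drought day 6 stem for 6.89% and in the watered day 9 stem for 4.96%, and in the watered and drought day 9 crowns for 19.3% and 20.3%. In the watered and drought day 6 crowns it lay for 8.28% and 7.38% of all listed genes. For 1103 of the 1341 stem-higher genes all 4 stem groups lay above all 4 crown groups (82.3%), and for 1100 of the 2337 crown-higher genes all 4 crown groups lay above all 4 stem groups (47.1%). Over all listed genes these percentages were 11.9% and 11.5%. The watered day 9 values that chose the sets are among the groups compared. The order of that pair was thus fixed for the sets and not for all listed genes, which raises the shares of the sets.

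The crown against stem difference was also read in the 3 other crown and stem pairs, which share no library with this one but come from the same 3 repeats. Under drought at day 9, 2084 of the crown-higher genes were listed, 98.5% of them with the crown above the stem, and 1472 were called crown-higher in the authors' deposited table (70.6% of those listed, where 11.6% of all genes in that table were called crown-higher). Of the stem-higher genes 1326 were listed, 99.7% with the stem above the crown, and 958 were called (72.2%, where 6.64% of all genes were). A crown-higher gene with a stem level under the listing minimum can be listed there only through its crown, so the share with the crown above the stem is a description. The share called crown-higher includes such genes too, since 620 of the 2337 were under 1 FPKM in the drought day 9 stem. For crown-higher genes above 0 in both tables the median log2 ratio was 1.57 watered and 1.54 under drought, and for stem-higher genes -1.33 and -1.21. The watered values chose the sets, and the drought values did not.

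At day 6 the sets parted. In watered plants 1337 of the 1341 stem-higher genes were listed, and 1054 were called stem-higher (78.8%, where 12.3% of all genes in that table were). Their median log2 ratio was -1.35, the size seen at day 9. Of the crown-higher genes 1837 were listed and 500 were not, of which 13 reached 2 FPKM in either group. Those listed had a median log2 ratio of 0.76, and 649 were called crown-higher (35.3%, where 8.30% of all genes were). Drought plants at day 6 gave the same order, with 1064 of 1336 listed stem-higher genes called (79.6%, against 10.7% of all genes) and 701 of 1717 listed crown-higher genes (40.8%, against 6.44% of all genes). Of the 2337 crown-higher genes, 641 were under 1 FPKM in the watered day 6 stem and 730 in the drought day 6 stem. Where listed, these entered only through the crown, which fixed their direction. The crown-higher shares and median at day 6 thus follow in part from the listing. Whether the difference between regions changed with day was not tested for any gene, since library values would be needed.

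The age comparison under drought uses none of the libraries that chose the sets. In drought crowns, 822 of 2088 listed crown-higher genes were called higher at day 9 than at day 6 (39.4%, where 7.97% of all genes in that table were), and 14 were called lower. Their median log2 ratio of day 9 over day 6 was 0.83, against 0.03 over all listed genes. In the drought day 6 crown, 380 of the 2337 crown-higher genes were under 1 FPKM. Such a gene could be listed only through its day 9 crown, which fixed its direction. The crown counts and median thus follow in part from the listing. In drought stems the crown-higher genes had a median of 0.13, with 227 of 1471 listed called higher (15.4%, against 4.08% of all genes) and 96 called lower (6.53%, against 7.30%). Stem-higher genes went the other way in both regions. In drought stems 552 of 1338 were called lower at day 9 (41.3%, against 7.30% of all genes) and 21 higher, with a median log2 ratio of -0.73, and in drought crowns 316 of 1270 were called lower (24.9%, against 2.59% of all genes) and 10 higher, with a median of -0.64.

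The drought response at day 6, also free of these libraries, was small in both sets. In day 6 crowns 149 of 1858 listed crown-higher genes were called (8.02%, where 2.08% of all genes in that table were), 120 of them lower under drought (6.46%, against 1.58% of all genes), and the median log2 ratio was -0.07. In day 6 stems 80 of 1402 were called (5.71%, against 1.44%), 56 of them lower (3.99%, against 0.916%), with a median of -0.22. Of the stem-higher genes 26 of 1284 were called in day 6 crowns (2.02%) and 21 of 1338 in day 6 stems (1.57%), close to the 2.08% and 1.44% of all genes. Their medians were -0.20 in both regions, where those of all listed genes were -0.03 and -0.02. These calls rest on the authors' joint adjustment. With p-values adjusted within each of these tables, 36 of the 1858 crown-higher genes were called in day 6 crowns (1.94%), where 91 of 17984 genes listed in both tables were (0.506%). In day 6 stems 14 of 1402 were called (0.999%), where 32 of 17292 were (0.185%).

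**Figure D4:**
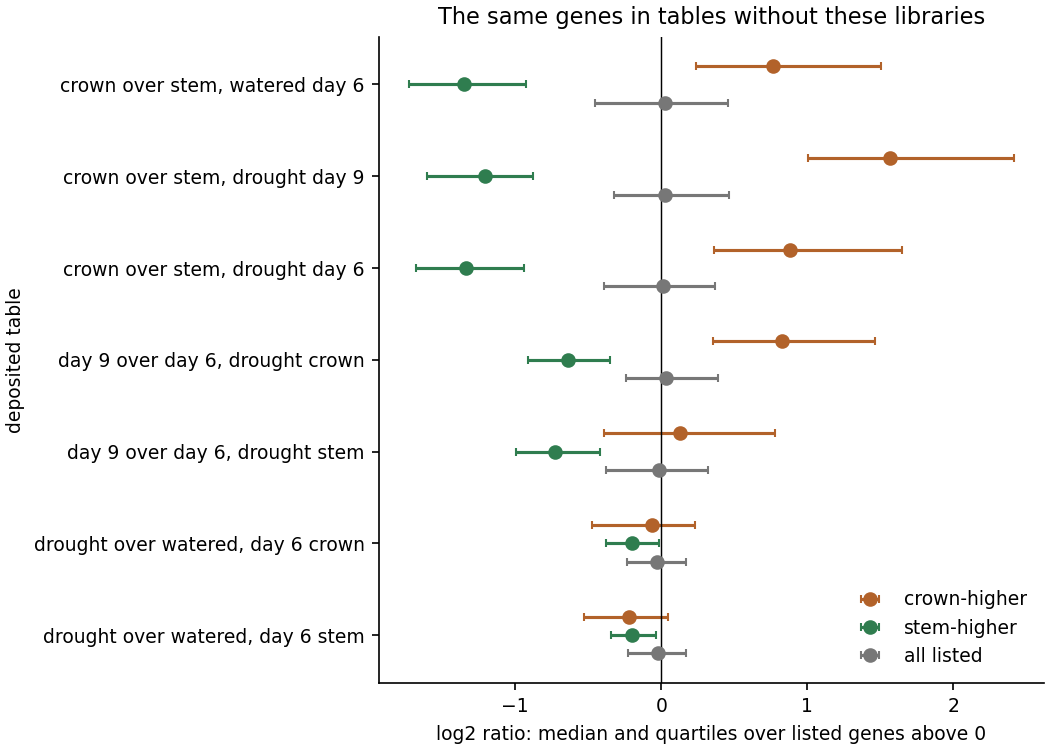
Points are medians and bars quartiles over listed genes of the log2 ratio (x axis) in 7 deposited tables that share no library with the watered day 9 pair (y axis), for genes called crown-higher (brown), genes called stem-higher (green) and all listed genes (grey). Stem-higher genes lie between -1.35 and -1.21 in the 3 crown over stem tables, while crown-higher genes lie at 1.56 under drought at day 9 and at 0.76 and 0.88 at day 6. Crown-higher genes lie at 0.83 in the drought crown's day 9 over day 6 table and at 0.13 in that of the drought stem.

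Call patterns over the 4 crown and stem tables divided the sets further. Of the 2337 crown-higher genes, 400 were crown-higher in all 4 tables (17.1%), 788 in both day 9 tables and in neither day 6 table (33.7%), and 694 in the watered day 9 table alone (29.7%). The others had further combinations. Of the 1341 stem-higher genes, 747 were stem-higher in all 4 (55.7%), 153 in both day 9 tables alone (11.4%) and 65 in the watered day 9 table alone (4.85%). Of the 694, 381 were not listed in at least 1 of the other 3 tables and could not be called there, and of the 788, 255. A gene called in 1 table and not in another is not shown to differ between them.

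The 400 crown-higher genes called in all 4 tables had median crown levels of 12.2 and 12.8 FPKM at day 6 (watered and drought) and 18.7 and 22.2 at day 9, with stems from 3.25 to 4.85. Of the 400, 2 were listed at 0 in every stem group. A 0 makes the log2 ratio infinite, so these 2 ranked first by the naming rule whatever their crown level. They were Sevir.7G020300 (chromosome 7, 7161570 to 7162238), with 5.69, 4.56, 6.19 and 8.16 FPKM in the watered day 6, drought day 6, watered day 9 and drought day 9 crowns, and Sevir.9G258200 (chromosome 9, 20994720 to 20995332), with 2.52, 3.02, 4.42 and 13.5 FPKM in the same order. Each had a q of 0.00091 in the authors' deposited tables. On the stem side Sevir.8G053800 (chromosome 8, 4543212 to 4546071) had the largest ratio that held in every table, at 55.0, 37.9, 13.6 and 8.83 FPKM in the stems in that order and 2.12, 1.44, 0.833 and 0.241 in the crowns. Its smallest log2 ratio was the watered day 9 one, which the authors' deposited table gave as -4.03 at q = 0.00091. Next came Sevir.6G180400, described above.

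The 788 genes called crown-higher on day 9 alone, with and without drought, had a median of 5.09 and 4.22 FPKM in the watered and drought day 6 crowns and 12.0 and 10.4 in those of day 9, while their stem medians lay between 2.73 and 3.96. The 694 genes called in the watered day 9 table alone had a median of 7.37 FPKM in the watered day 9 crown, 3.27 in the drought day 9 crown, and 2.16 and 1.81 in the day 6 crowns. Their stem medians lay between 1.34 and 1.78 FPKM. In 616 of the 694 the drought day 9 crown had the lower level than the watered one, and in 314 it was more than 2-fold below. Over all 2337 crown-higher genes 457 were more than 2-fold below the watered level, 219 more than 4-fold and 98 more than 10-fold, and of the last 98, 91 belonged to the 694. Over all 19490 listed genes these numbers were 1130, 430 and 186. The 694 were chosen by a call in the watered day 9 table and the lack of one in the other 3, and the watered crown value is also the denominator, so these levels and counts follow in part from the choice and only describe the set.

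A small number of genes changed sides between days. Called crown-higher at day 9 and stem-higher at day 6 in watered plants were 35 of the 1837 crown-higher genes listed at day 6. This was 1.91%, where 12.3% of all genes in watered plants at day 6 were called stem-higher. Crown-higher genes listed only through their crown could not be called stem-higher in any other crown and stem pair, which lowers such shares. The 35 had medians of 6.15 FPKM in the crown against 14.0 in the stem at day 6, and 19.2 and 7.55 at day 9. Sevir.1G260500 (chromosome 1, 32481264 to 32482352) went from 0.947 FPKM in the crown against 5.72 in the stem at day 6 to 33.4 and 3.16 at day 9, and the log2 ratio from -2.59 at q = 0.020 to 3.40 at q = 0.00091 by the authors' deposited tables. Sevir.4G098900 (chromosome 4, 8632467 to 8634241) went from 0.850 and 4.75 FPKM to 12.2 and 3.11, and the log2 ratio from -2.48 at q = 0.0053 to 1.98 at q = 0.0023 by the authors' deposited tables. In drought plants at day 9 both stayed low in the crown, at 1.18 and 1.62 FPKM.

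In the other direction 11 of the 1337 stem-higher genes listed at day 6 were called crown-higher at day 6 in watered plants. This was 0.82%, where 8.30% of all genes were called crown-higher. The 11 had medians of 25.5 FPKM in the crown against 13.3 in the stem at day 6, and 14.6 and 28.2 at day 9. Sevir.2G127300 (chromosome 2, 13029807 to 13031102) went from 8.70 FPKM in the crown against 1.66 in the stem to 3.55 and 10.6, and the log2 ratio from 2.39 at q = 0.028 to -1.57 at q = 0.024 by the authors' deposited tables. Sevir.4G123400 (chromosome 4, 13623795 to 13625440) went from 22.7 and 9.35 FPKM to 8.73 and 25.8, and the log2 ratio from 1.28 at q = 0.014 to -1.56 at q = 0.0042 by the authors' deposited tables. Both were also called stem-higher under drought at day 9, with log2 ratios of -2.13 and -2.28 in the authors' deposited table. Against the drought day 6 table, 32 of 1717 listed crown-higher genes were called in the opposite direction. This was 1.86%, where 10.7% of all genes were called stem-higher. Of 1336 listed stem-higher genes 4 were called in the opposite direction (0.30%, where 6.44% of all genes were called crown-higher). These 4 were Sevir.2G127300, Sevir.4G046900, Sevir.6G074400 and Sevir.9G408900.

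At day 9 the region order was reversed under drought for 4 crown-higher genes and for 0 stem-higher genes, by the authors' calls. The 4 were 0.19% of the 2084 crown-higher genes listed, where 6.64% of all genes under drought at day 9 were called stem-higher. For stem-higher genes it was 0 of 1326, where 11.6% of all genes were called crown-higher. In Sevir.1G105800 (chromosome 1, 9010739 to 9015624) the watered crown and stem stood at 34.1 and 2.48 FPKM and the drought ones at 0.578 and 3.27, and the authors' deposited tables gave log2 ratios of 3.78 at q = 0.00091 and -2.50 at q = 0.037. Sevir.5G371400 (chromosome 5, 39282025 to 39284550) had 29.6 and 11.3 FPKM watered and 2.65 and 6.17 under drought. Sevir.9G542800 (chromosome 9, 53335846 to 53337900) had 13.3 and 0.421 FPKM watered and 1.07 and 3.31 under drought. In these 3 the crown was the region with the larger gap between water regimes by FPKM. Sevir.8G262000 (chromosome 8, 39807865 to 39808225) was of another kind, since its crowns stood at 825 FPKM watered and 719 under drought while its stems stood at 472 and 1318. The authors' deposited tables gave all 4 genes a drought q between 0.031 and 0.037, and Sevir.8G262000 a watered q of 0.047. None of the 4 thus had a drought q under 0.01. The interaction of region and drought was not tested for these genes.

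**Figure D5:**
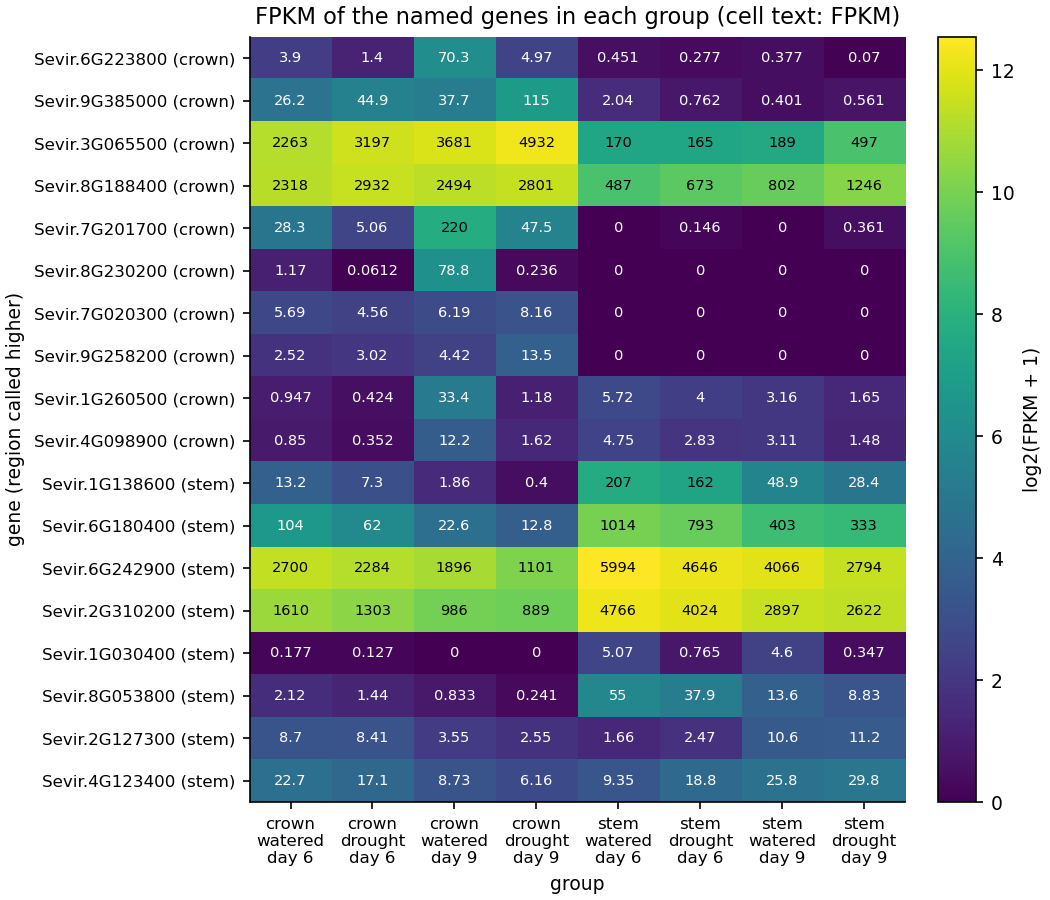
Rows are the 18 genes named for the size, level, absence, constancy or change of side of their difference, with the region called higher in brackets, and columns are the 8 groups. Colour gives log2(FPKM + 1) and the text in each cell the FPKM. Sevir.3G065500 lies between 2263 and 4932 FPKM in the crown groups, whereas Sevir.6G223800 and Sevir.8G230200 exceed 5 FPKM in the watered day 9 crown and in no other group.

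Crown-higher and stem-higher genes lay on all 9 chromosomes. Crown-higher genes made up between 10.2% (chromosome 6) and 16.5% (chromosome 8) of the genes listed on each of the 9 chromosomes, against 12.0% of all listed genes, and stem-higher genes between 5.66% (chromosome 3) and 8.42% (chromosome 6), against 6.88%. The longest run of consecutive listed genes called in the crown direction had 6 members on chromosome 5 between 24761280 and 24944321, from Sevir.5G204300 to Sevir.5G205100. Their log2 ratios lay between 1.23 and 2.56 in the authors' deposited table, and all 6 were also called crown-higher under drought at day 9. In watered plants at day 6, Sevir.5G204400, Sevir.5G204900 and Sevir.5G205100 were not called, with log2 ratios of 0.03, 0.40 and -0.03 in the authors' deposited table. The most abundant was Sevir.5G204700 (24891679 to 24896465), at 112 FPKM in the watered day 9 crown and 26.9 in the stem, and at 20.3 and 8.96 FPKM at day 6.

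The longest stem-higher run had 4 members on chromosome 9 between 30784764 and 30826319, Sevir.9G291400 to Sevir.9G291700. In the watered day 9 stem they stood at 487, 9.76, 438 and 74.1 FPKM, and in the crown at 85.6, 1.13, 55.3 and 25.1. The authors' deposited table gave log2 ratios of -2.51, -3.11, -2.98 and -1.56. At day 6 the watered stem levels were 979, 29.5, 1589 and 143 FPKM. All 4 genes were called stem-higher in each of the 4 crown and stem tables. Neighbouring genes of similar sequence can share reads, and how the authors' counting treated such reads is not given in the sources used here.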

How the data were processed

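RNA was sequenced from crown and stem of Setaria viridis after ribosomal RNA depletion with strand-specific libraries, per the labels' protocols. FastQC, cutadapt and Cuffdiff are the tools listed by the submitters' processing notes, with no version for any. The sources used here do not give the aligner, the annotation release or the genome build. FPKM values in the deposited tables are the authors' group values over 3 libraries and were the same in each of the 7 tables that hold a group. The log2 fold changes, the test statistic (a score) and the p-values and q-values are those of the authors' deposited tables. Log2 ratios were turned to crown over stem. Adjusting all 531416 p-values of the 28 tables together by Benjamini and Hochberg gave the deposited q-values (largest difference 5.3e-07), so 1 limit on p, 0.00735, held for every table.

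No test could be run on libraries, and all counts, medians and quartiles were computed from these tables with Python 3.11.15 and pandas 2.3.3. Medians of log2 ratios leave out genes at 0 in a group. Listed genes had at least 2.02 FPKM in the higher group. The adjustment within the table was tested on simulated data.

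Genes were named by rule among called genes, 2 per direction: the largest log2 ratios with the higher group at or above its median of 13.6 FPKM, the highest levels, the highest levels opposite a 0, the ratios largest in their smallest of the 4 crown and stem tables, and the largest reversals against watered day 6. The longest run per direction was named too, as were the genes called in opposite directions in a table where these were 5 or fewer. The sets and rules were chosen with earlier results of these data known. Prepared lists of gene functions found no member, since no identifier could be paired with a description. Sequences were not used here.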

Additional observations from a re-analysis of the deposited data

How the results depend on the processing

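No paired analysis was possible because the tables give 1 value per group, and replicates could not be left out for the same reason. A q under 0.01 called 2250 genes, 1393 crown-higher and 857 stem-higher (61.9% crown-higher). A minimum of 10 FPKM in the higher group called 2436, with 1304 crown-higher (53.5%), and a mean at or above the median gene 1803, with 886 crown-higher (49.1%). A 2-fold minimum put the crown-higher share at 65.2%, and adjustment within the table alone called 3919 genes. Rescaling both groups to the same total moved each log2 ratio by 0.13 and the median gene to 0.18, and centring on the median gene moved each by -0.05. The smallest called log2 ratio was 0.71 in size in either direction, so neither step could turn a called gene. With q under 0.01 in both tables, crown-higher genes called again numbered 329 (watered day 6), 829 (drought day 9) and 383 (drought day 6), and stem-higher genes 697, 590 and 698. With 10 FPKM in both tables the crown-higher numbers were 337, 824 and 374. A pseudocount added to both groups cannot change the sign of a log2 ratio. For the 32 named genes with a log2 ratio, pseudocounts of 0.1 and 1 therefore test only its size. With a pseudocount of 1, 7 of them moved by more than 1.5 times, among them Sevir.9G234700 to 6.24 and Sevir.6G223800 to 5.69, and with 0.1 Sevir.9G234700 moved to 8.86. Adjustment within each followed table, chosen after seeing the data, left the crown against stem and age counts within 1.5 times of those given, and lowered most counts of the day 6 drought response by more than that. Depth per library is unknown, so levels near 0 carry no limit.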

Other observations

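The p-values of 1379 genes are tied at 5e-05. For those above 0 FPKM in both regions the authors also gave a test statistic. Its largest value in the crown direction, 7.79 in the authors' deposited table, belonged to Sevir.1G264300 (chromosome 1, 32706781 to 32707949), a gene named after its values were seen. It stood at 462 FPKM in the watered day 9 crown and 16.2 in the stem. The drought day 9 crown had 70.0 FPKM, and the day 6 crowns had 59.0 watered and 35.4 under drought. No stem group exceeded 41.9 FPKM, the level of the drought day 6 stem. In drought plants at day 6 the stem thus stood above the crown, and the gene was not called (log2 ratio -0.24 at q = 0.699 in the authors' deposited table). In the stem direction the largest value, -7.08 in the authors' deposited table, was that of Sevir.6G180400.

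Called genes had shorter models than listed genes in general. Among genes with a position entry of their own, the median span was 2675 bp for 2291 crown-higher genes, 3103 bp for 1293 stem-higher genes and 3480 bp for all 18167. Runs of 3 or more consecutive listed genes called in 1 direction held 259 of the 2337 crown-higher genes and 34 of the 1341 stem-higher genes. The sets held 12.0% and 6.88% of all listed genes, and a larger set forms more runs by its size alone. The counts expected from set size were not computed, so the contrast in clustering was not tested.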
